A study of Mus musculus with 13 samples.

Results

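Synaptic vesicles release transmitter through a small set of proteins, and 67 genes of this machinery had a probe on the arrays used here, among 33458 genes with a probe. They were taken by gene symbol: the synaptotagmins (Syt), synapsins (Syn), syntaxins (Stx) and syntaxin-binding proteins (Stxbp), the SNAP and VAMP families, the SV2 proteins (Sv2), the Rab3 GTPases, the complexins (Cplx) and the RIM proteins (Rims). The rule used names and no measured value, but it was set with earlier results of these data known. The arrays measured RNA of the mouse retina, with 6 samples labelled tip, 4 labelled stalk and 3 controls labelled as nonvascular retina. In a sprouting vessel, endothelial tip cells form the leading end and stalk cells follow, and by its title the study looked for genes of tip cells, among them the chemokine receptor gene Cxcr4. Each array carried the sample in the red dye (Cy5) against one Universal Mouse Reference RNA in the green dye (Cy3), with no dye swap. The labels used here give no strain, genotype, age or treatment, do not say how the cells were collected and do not tie samples to animals. The p-values therefore measure the spread between these samples, which may be partly technical.

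In a nerve terminal, calcium entering through channels at the active zone is sensed by synaptotagmin, which triggers the fusion of docked vesicles. Fusion is driven by SNARE proteins: VAMP on the vesicle zips together with syntaxin and SNAP-25 on the plasma membrane, with complexin and RIM as partners. Other members of the same families, such as SNAP-23, syntaxin 4 and VAMP3, serve secretion and membrane traffic in most cells, endothelium included. In the retina, photoreceptors and bipolar cells release from ribbon synapses, which use syntaxin 3 and the complexins Cplx3 and Cplx4 in place of syntaxin 1 and the conventional complexins.

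All values are log2 ratios of sample over reference RNA, so 0 means as much signal as in the reference, and a difference of 1 is a 2-fold change. For each gene the brightest probe was used, and limma's test was run on 31941 genes that were well above background in red on at least 3 arrays. Of the 67 genes, 64 passed that filter, 61 of them on all 13 arrays, and none passed it through the nonvascular arrays alone. The other 3, Stx19 and Stxbp5l among them, did not pass and were not tested. Genes with a Benjamini-Hochberg adjusted p under 0.05 are called higher or lower. In this bulk RNA, fewer cells of a type and less RNA per cell cannot be told apart.

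The arrays had a median red signal over background of 98.1 to 292, and the red signal of 85.0% to 95.4% of the spots was well above background. Pan-neuronal markers (13 genes with a probe, such as Tubb3 and Nefl) summed to a red signal of 90007 to 132450 on the nonvascular arrays, 4623 to 12163 on the stalk arrays and 11192 to 16334 on the tip arrays. The lowest of these sums, 4623, was that of stalk replicate 3, while the other stalk arrays had 9697 to 12163. Of the 13 neuronal markers, 12 were lower than in nonvascular retina both in tip and in stalk, and all 13 were well above background on every nonvascular array. The remaining marker was saturated in red on all 3 nonvascular arrays and on no vessel array. Its nonvascular level, and with it the sum there, may be capped. Endothelial markers (12 genes) went the other way, with 3916 to 6377 in nonvascular retina, 66644 to 68875 in stalk and 39100 to 47377 in tip. Astrocyte markers (7 genes) stood at 33435 to 43651 in the vessel samples and at 3526 and 3537 on 2 nonvascular arrays, but at 20170 on nonvascular replicate 3. The summed photoreceptor markers were low everywhere, at 2616 to 5579, and the bipolar sum was 10760 to 12375 in nonvascular retina against 3698 to 5251 in the vessel samples. These sums moved with the results on the release genes, and their part in those results was not tested. The order of scanning followed the groups, stalk first and nonvascular retina last, and the effects of scanning order and group cannot be told apart.

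**Figure D1:**
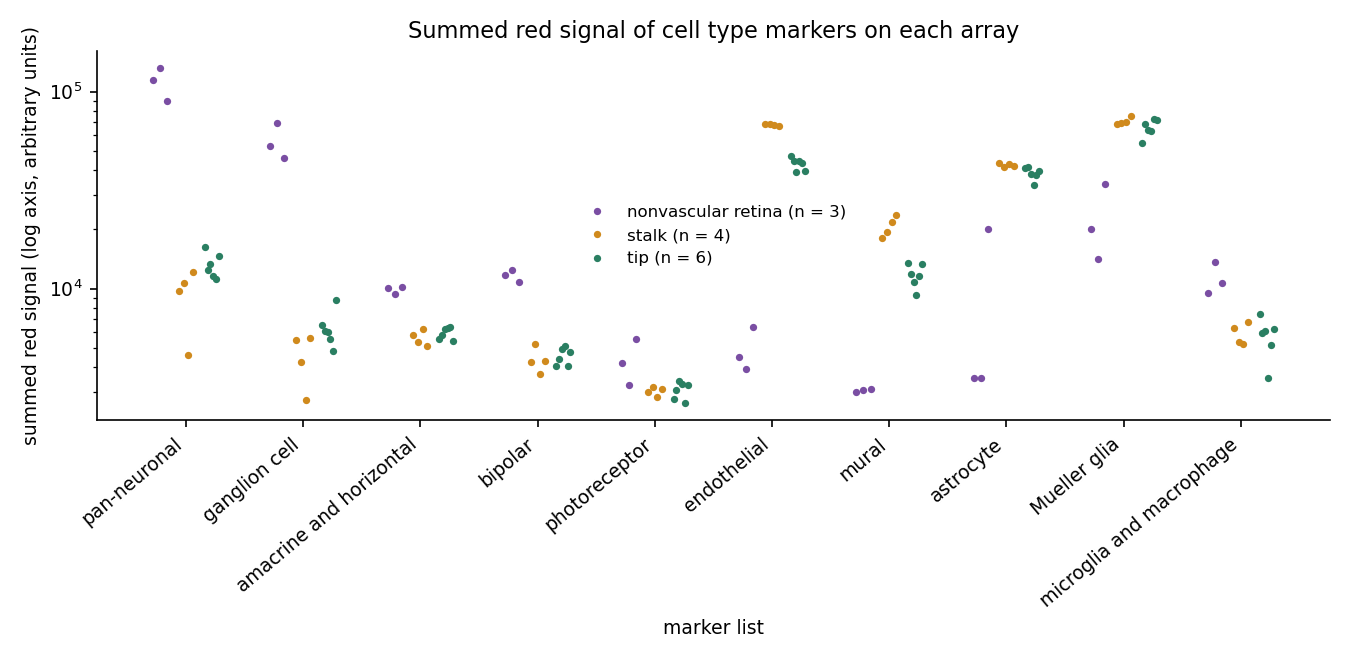
Summed red signal of 10 cell type marker lists (log axis) on each of the 13 arrays, 1 point per array, coloured by group. Pan-neuronal, ganglion cell, amacrine and horizontal, and bipolar sums are highest in nonvascular retina, while photoreceptor sums overlap (3247 on nonvascular replicate 2, 3402 on tip replicate 3). Among the pan-neuronal sums that of stalk replicate 3 (4623) is the lowest. Endothelial sums reach 66644 or more in stalk against at most 6377 in nonvascular retina.

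Release genes were more often lower than higher in the vessel samples. In tip samples, 24 of the 64 tested genes were lower than in nonvascular retina (37.5%, against 16.8% of all genes tested) and 13 were higher (20.3%, against 11.2%). In stalk samples, 26 were lower (40.6%, against 18.6% of all genes) and 10 were higher (15.6%, against 11.3%). The median difference over the 64 genes was -0.12 in tip and -0.13 in stalk, beside -0.01 and -0.0032 over all genes tested. Both comparisons use the same 3 nonvascular arrays, so they are not independent of each other. The counts are given by role, and differences between roles were not tested. Of 26 genes of the neuronal release core, 14 were lower and 0 higher in tip, and 15 were lower and 1 was higher in stalk. In tip, 16 of the 26 had an unadjusted p under 0.05 by limma, beside 11722 of all 31941 genes tested. Among 21 trafficking SNAREs and their partners, 10 were higher and 5 lower in tip, and 7 were higher and 7 lower in stalk. The remaining 17 genes, mostly other synaptotagmins, had 3 higher and 5 lower in tip and 2 higher and 4 lower in stalk.

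**Figure D2:**
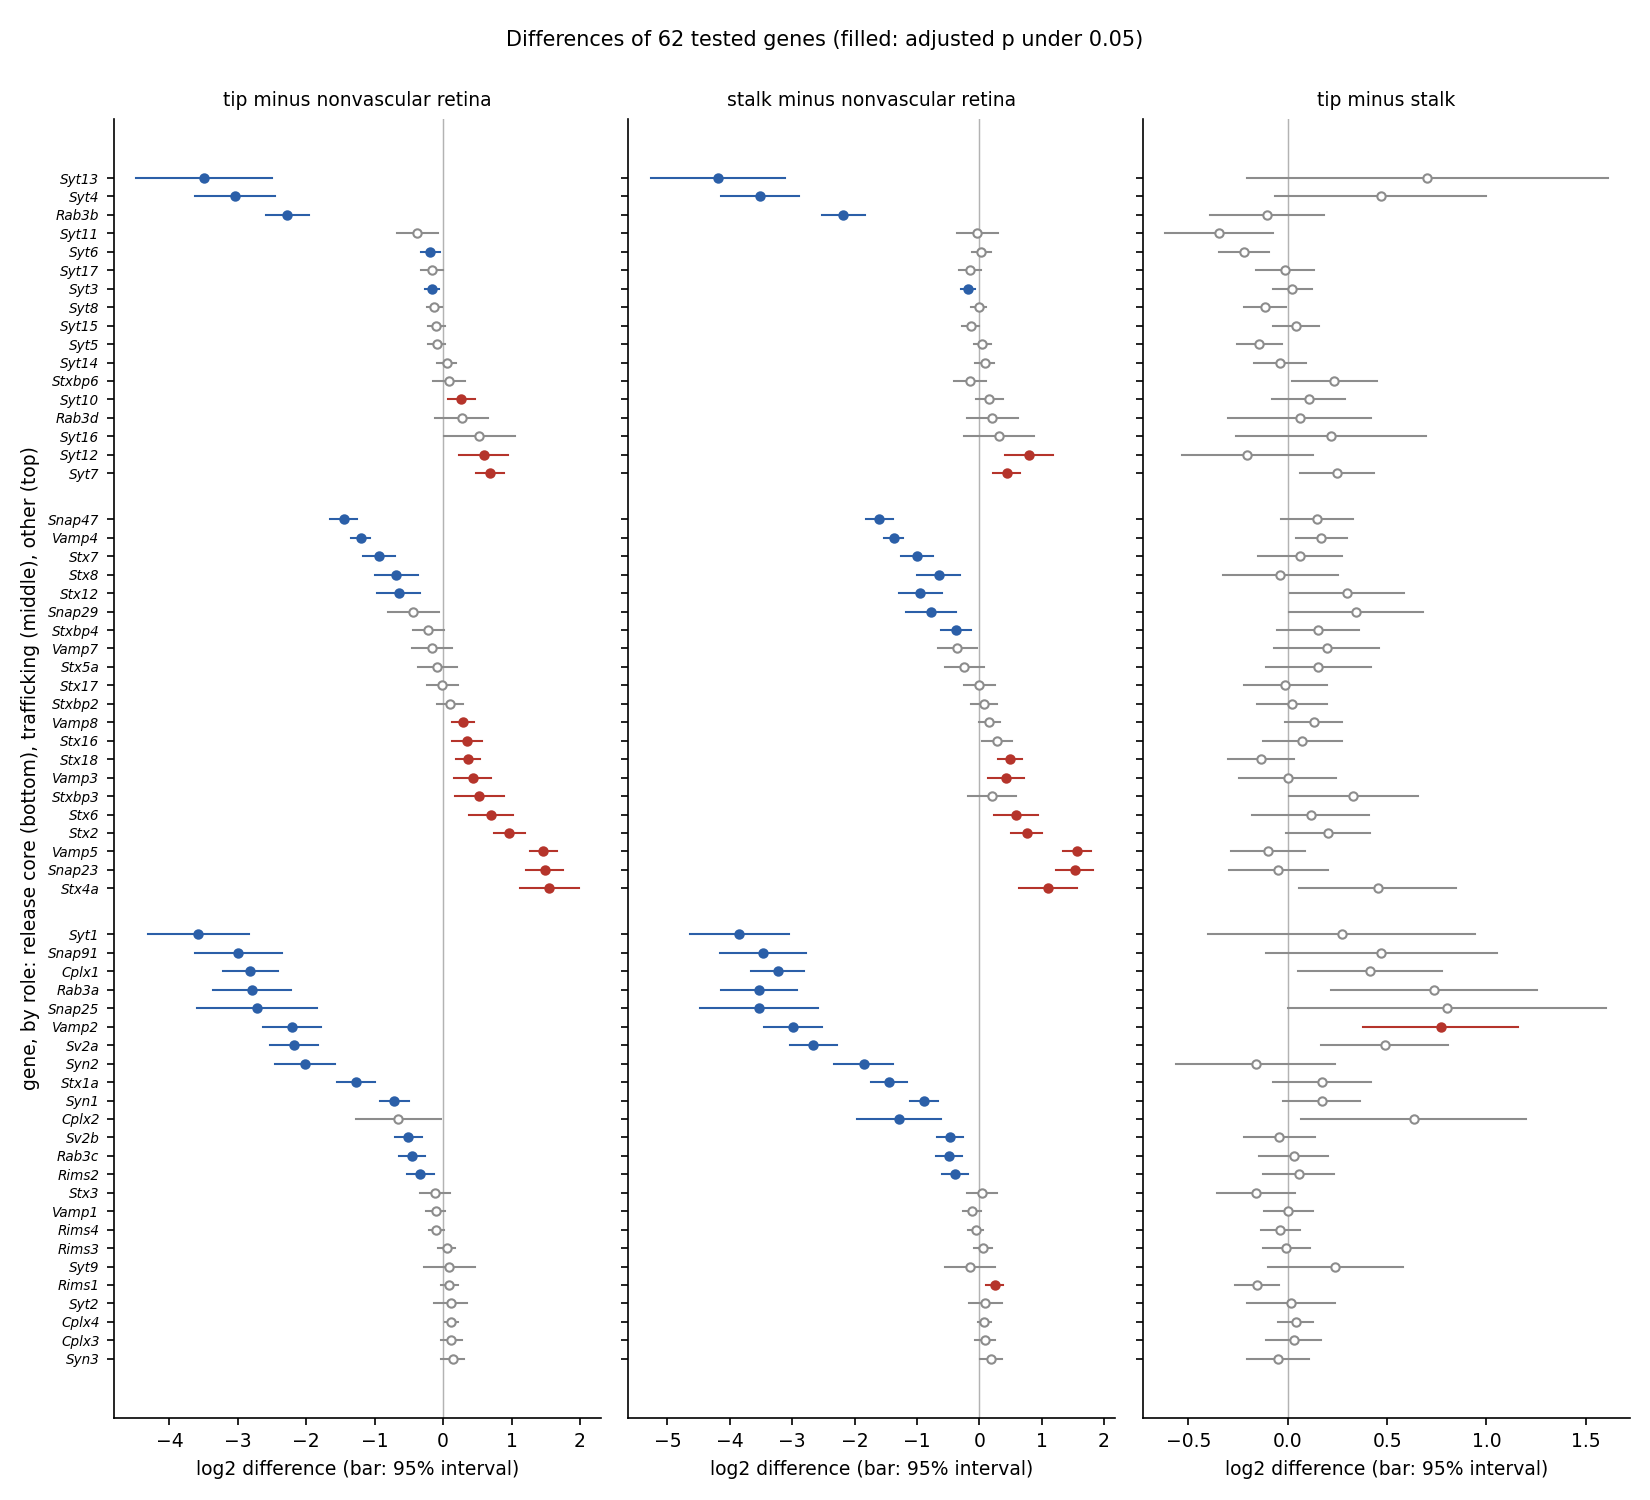
Log2 difference of 62 of the 64 tested genes with its 95% interval in the 3 comparisons, sorted by role and by the tip value, with separate horizontal scales. Filled points are called (blue lower, red higher): 23 and 13 in tip against nonvascular retina, 25 and 10 in stalk against nonvascular retina, and only Vamp2 in tip against stalk.

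Genes of the vesicle fusion step were lower in both vessel groups. Syt1, the calcium sensor of fast release, stood at 5.00, 5.38 and 5.26 on the nonvascular arrays and at 1.57, 1.95, 0.33 and 1.62 on the stalk arrays. Its tip values ran from 0.90 through a median of 1.73 to 2.18. Every vessel sample was thus far below every nonvascular sample, while tip and stalk overlapped. The difference was -3.58 ± 0.34 (SE) in tip, an 11.9-fold drop (limma, adjusted p = 4.09e-06), and -3.85 ± 0.37 in stalk, a 14.4-fold drop (adjusted p = 4.15e-06). Snap25, the plasma membrane SNARE of neurons, had 4.94, 5.37 and 5.38 in nonvascular retina, and 1.79, 1.88, 0.41 and 2.73 in stalk. Across the tip arrays it ranged from 1.95 to 3.12 with a median of 2.45. Snap25 was 6.62-fold lower in tip (-2.73 ± 0.40, limma adjusted p = 0.000188) and 11.5-fold lower in stalk (-3.53 ± 0.44, adjusted p = 3.94e-05), with no overlap between vessel and nonvascular arrays. On stalk replicate 3 both genes had their lowest value of all 13 arrays. Without that array the stalk difference was -3.50 for Syt1 and -3.10 for Snap25, and both calls held.

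The vesicle SNARE Vamp2 had 2.36, 2.56 and 1.97 in nonvascular retina and -0.59, -0.57, -1.16 and -0.42 in stalk. Its tip values lay between -0.39 and 0.39 with a median of 0.16, so that the 3 groups did not overlap. The gene was 4.63-fold lower in tip (-2.21 ± 0.20, limma adjusted p = 2.43e-06) and 7.89-fold lower in stalk (-2.98 ± 0.21, adjusted p = 3.60e-07). Stx1a, the neuronal plasma membrane syntaxin, fell from 1.80, 1.58 and 1.23 to 0.05 to 0.41 in tip and -0.17 to 0.31 in stalk. Those drops were 2.42-fold (-1.27 ± 0.12, limma adjusted p = 5.55e-06) and 2.73-fold (-1.45 ± 0.13, adjusted p = 3.49e-06). Syt1, Snap25, Vamp2 and Stx1a were thus all lower in both vessel groups.

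Complexins, which clamp and activate the assembled SNAREs, did not all change alike. Cplx1 had 3.43, 3.75 and 3.27 in nonvascular retina, 0.27, 0.12, -0.01 and 0.62 in stalk, and 0.26 to 1.13 in tip (median 0.72). It was 7.05-fold lower in tip (-2.82 ± 0.18, limma adjusted p = 1.82e-07) and 9.40-fold lower in stalk (-3.23 ± 0.20, adjusted p = 1.07e-07). Cplx2 varied more within nonvascular retina, at 1.58, 1.52 and 2.71, the last being the array with high astrocyte markers. It was called in stalk (-1.29 ± 0.31, limma adjusted p = 0.00607, or 0.0808 with array brightness as a covariate), where its values of 0.39 to 0.81 did not overlap. In tip the difference of -0.65 ± 0.29 was not called (adjusted p = 0.115, or 0.0365 without tip replicate 2), and its values of 0.89 to 2.01 overlapped with nonvascular retina. The ribbon synapse complexins stood near 0 on every array: Cplx3 lay between -0.02 and 0.38 over all 13 arrays and Cplx4 between -0.10 and 0.12. Their differences were 0.12 ± 0.07 and 0.12 ± 0.04 in tip and 0.09 ± 0.08 and 0.08 ± 0.05 in stalk, none of them called. How far background correction drew these differences toward 0 was not tested. Cplx4 was called higher in tip with the Feature Extraction or deposited ratios (0.55, limma adjusted p = 0.0118) and without tip replicate 1 (0.13, adjusted p = 0.0460), and its tip and nonvascular values did not overlap. The 95% interval of Cplx3 ran from -0.03 to 0.27 in tip and from -0.07 to 0.25 in stalk. Stx3, the ribbon synapse syntaxin, likewise was not called with its brightest probe (-0.12 ± 0.10 in tip, 0.04 ± 0.11 in stalk), but it was called lower in tip with the mean of its probes (-0.17, adjusted p = 0.0302). A further Stx3 probe, designed on another transcript, had 1.07 in nonvascular retina, 0.36 in stalk and 0.46 in tip on average.

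Vesicle proteins outside the SNARE complex followed. Sv2a, a glycoprotein of all synaptic vesicles, had 2.84, 2.76 and 2.24 in nonvascular retina, 0.12, -0.05, -0.26 and -0.01 in stalk, and 0.03 to 0.71 in tip (median 0.51). Vessel samples and nonvascular retina did not overlap, and Sv2a was 4.51-fold lower in tip (-2.17 ± 0.16) and 6.33-fold lower in stalk (-2.66 ± 0.17, limma adjusted p = 5.28e-07 and 1.85e-07). Sv2b changed less, by -0.51 ± 0.09 in tip and -0.47 ± 0.10 in stalk, and lost both calls with the red channel alone, and the stalk call also with the Feature Extraction or deposited ratios and with array brightness as a covariate. Rab3a, the GTPase that tethers vesicles through RIM, had 4.25, 4.59 and 4.33 in nonvascular retina, 1.23, 1.25, -0.09 and 1.06 in stalk, and 1.2 to 1.89 in tip (median 1.67). It was 6.93-fold lower in tip (-2.79 ± 0.26) and 11.5-fold lower in stalk (-3.53 ± 0.28, limma adjusted p = 3.73e-06 and 9.35e-07). Stalk replicate 3 stood alone at the bottom here too, and without it the stalk difference was -3.21. Rab3c differed by -0.46 ± 0.09 in tip and -0.48 ± 0.09 in stalk, at a probe well above background on 4 of 6 tip arrays and 1 of 4 stalk arrays. With the Feature Extraction or deposited ratios the Rab3c values were -1.52 and -1.88, and under median centring the stalk call was lost (-0.54, adjusted p = 0.112). Snap91 is AP180, a clathrin assembly protein that shares its symbol stem with the SNAPs but is no SNARE. With 5.60, 6.07 and 6.19 in nonvascular retina it fell to 2.52 to 3.17 in tip (-2.99 ± 0.29, 7.96-fold) and to 1.46 to 3.08 in stalk (-3.46 ± 0.32, 11-fold).

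Synapsins coat vesicles and hold them in the reserve pool. Syn2 had 2.36, 2.42 and 2.48 in nonvascular retina, 1.03, 0.24, 0.09 and 0.91 in stalk, and 0.13 to 0.76 in tip (median 0.32). It was 4.04-fold lower in tip (-2.01 ± 0.20, limma adjusted p = 6.61e-06) and 3.61-fold lower in stalk (-1.85 ± 0.22, adjusted p = 2.55e-05). Syn1 was below the reference everywhere, at -1.27, -1.28 and -1.55 in nonvascular retina, -2.35, -2.02, -2.38 and -2.26 in stalk and -2.29 to -1.90 in tip. Its drops were smaller but did not overlap with nonvascular retina: 1.64-fold in tip (-0.71 ± 0.10, limma adjusted p = 8.97e-05) and 1.85-fold in stalk (-0.89 ± 0.10, adjusted p = 2.71e-05). Another Syn1 probe gave mean differences of -1.18 and -1.24. Syn3 was not called (0.14 ± 0.08 in tip, with 1 of 6 tip values missing as a spot outlier, and 0.19 ± 0.08 in stalk). It was called higher in both groups with the mean of its probes (0.31 and 0.24, limma adjusted p = 0.00143 and 0.0139) and without tip replicate 2 (0.19 in each, adjusted p = 0.0430 and 0.0455). Syn3 was also called in tip with the red channel alone and in stalk with the Feature Extraction or deposited ratios.

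RIM proteins dock vesicles at the active zone and bind Rab3. Rims2 was lower in tip (-0.34 ± 0.09, limma adjusted p = 0.0134) and in stalk (-0.39 ± 0.10, adjusted p = 0.00812), from 0.69, 0.42 and 0.56 in nonvascular retina to at most 0.40 in any vessel sample. Rims1 was the 1 core gene that was higher in stalk (0.24 ± 0.06, adjusted p = 0.00780), moving from -0.29, -0.21 and -0.27 to between -0.07 and 0.05. Without nonvascular replicate 1 the tip call of Rims2 was lost (-0.27, adjusted p = 0.0847). With array brightness as a covariate the calls of Rims1 and Rims2 in stalk were lost (adjusted p = 0.0916 and 0.121), and that of Rims2 also under median centring (-0.41, adjusted p = 0.0655). With the Feature Extraction or deposited ratios Rims2 had -0.89 in tip and -1.09 in stalk, and Rims1 had 0.56 in stalk. Rims1 was called higher in tip with the red channel alone (0.44, adjusted p = 0.0142). Rims3, Rims4, Vamp1, Syt2 and Syt9 were not called in either comparison, with differences of -0.15 to 0.11, although Vamp1 was called lower in tip without tip replicate 2 (-0.15, adjusted p = 0.0494). In all, 10 of the 26 core genes were called in neither comparison. Their probes had a mean red level (log2) of 6.26 to 9.64 in nonvascular retina, where the dimmest spot still well above background lay between 5.20 and 6.08 depending on the array. Background correction added an offset to both channels, which draws the log2 ratios of dim spots toward 0. How far it reduced the differences of these 10 genes was not tested.

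**Figure D3:**
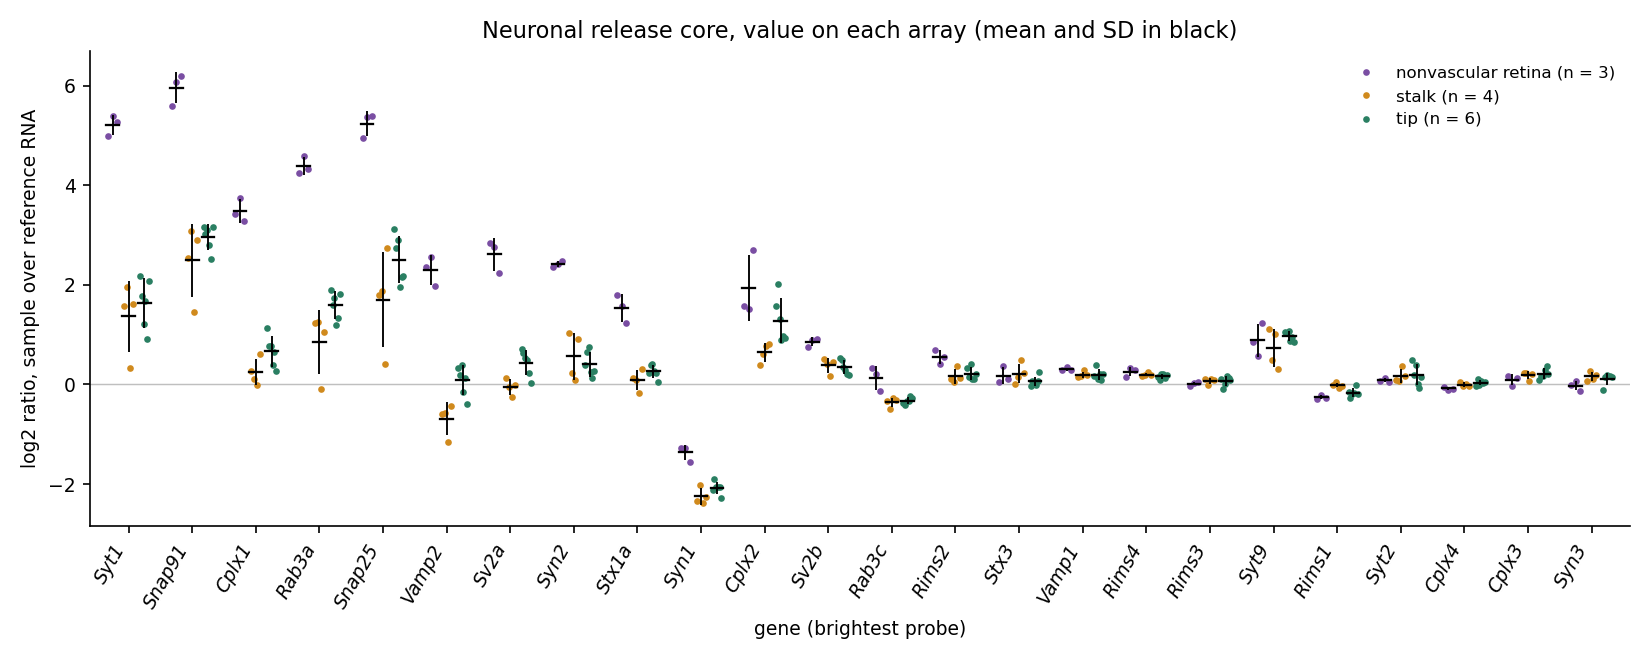
Log2 ratio over reference RNA on every array for 24 of the 26 core release genes, 1 point per array, with group mean and SD in black, sorted by the tip difference. From Syt1 to Syn1 on the left all nonvascular arrays lie above all vessel arrays, and from Stx3 to Syn3 on the right all values but those of Syt9 lie between -0.29 and 0.49.

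Promoter sequence was looked at for genes that moved together. RefSeq promoter windows on GRCm38.p6, from 250 bases before to 50 bases after a gene's start, were on hand for 50 of the 67 genes, 18 of them core genes. Many neuronal genes carry RE1, the site of the repressor REST, whose left and right parts read TTCAGCACC and GGACAGCGC, and each was searched on both strands. Of 66 windows of these genes 1 held either of them (1.52%), beside 250 of 32851 windows of the whole table (0.761%), 122 with the left part and 133 with the right. The 1 window was that of Syn1, which holds the left part on the gene's strand at position -232 from the start. It is shown in capitals, beside the windows of Syt1 and Cplx1, which had drops of over 7-fold and hold neither part. A match is a description of letters, and their absence in so short a window says nothing of the factor. The Syn1 window is chrX:20920869-20921168 (minus strand), that of Syt1 chr10:109010926-109011225 (minus strand, the first listed of 2) and that of Cplx1 chr5:108549978-108550277 (minus strand).
Syn1: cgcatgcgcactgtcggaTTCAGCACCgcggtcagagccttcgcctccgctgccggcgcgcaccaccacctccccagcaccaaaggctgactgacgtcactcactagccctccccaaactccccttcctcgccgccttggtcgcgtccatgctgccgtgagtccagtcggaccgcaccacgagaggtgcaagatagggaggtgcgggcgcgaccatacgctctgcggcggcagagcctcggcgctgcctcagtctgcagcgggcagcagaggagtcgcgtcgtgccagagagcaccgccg
Syt1: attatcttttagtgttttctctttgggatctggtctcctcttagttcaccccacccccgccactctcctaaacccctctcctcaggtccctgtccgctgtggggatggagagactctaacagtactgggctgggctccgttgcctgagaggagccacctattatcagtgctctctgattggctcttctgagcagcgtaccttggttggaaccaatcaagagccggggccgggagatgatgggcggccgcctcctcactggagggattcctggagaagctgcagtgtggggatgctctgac
Cplx1: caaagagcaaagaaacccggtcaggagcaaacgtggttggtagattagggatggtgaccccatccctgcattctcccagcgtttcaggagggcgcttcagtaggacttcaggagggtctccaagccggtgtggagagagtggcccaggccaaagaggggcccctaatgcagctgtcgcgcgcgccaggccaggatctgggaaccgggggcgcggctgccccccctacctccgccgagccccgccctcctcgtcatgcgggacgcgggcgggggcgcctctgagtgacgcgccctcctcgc

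The windows were also counted for base composition. Those of genes lower in both vessel groups (17 of 23 such genes with a window) had a median of 60% G+C and 17 CpG, and those of genes higher in both (6 of 9) had 63.3% and 23 CpG. The medians of the whole table were 52.7% and 7 CpG. The window of Syn1 has 68.3% G+C with 33 CpG and that of Cplx1 67% with 24, while that of Syt1 has 56.7% with 8.

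SNAREs of general membrane traffic moved in both directions. Snap23, the widely expressed relative of Snap25, had -2.27, -2.19 and -1.82 in nonvascular retina, -0.56, -0.78, -0.56 and -0.35 in stalk, and -0.78 to -0.31 in tip (median -0.68). No vessel sample was as low as any nonvascular sample. Snap23 was 2.80-fold higher in tip (1.48 ± 0.13, limma adjusted p = 1.56e-06) and 2.89-fold higher in stalk (1.53 ± 0.14, adjusted p = 2.22e-06). Vamp5, a VAMP best known from muscle and endothelium, had -1.93, -2.27 and -1.82 in nonvascular retina, -0.57, -0.46, -0.37 and -0.37 in stalk, and -0.64 to -0.39 in tip (median -0.56). Again the groups did not overlap, at 2.76-fold higher in tip (1.46 ± 0.09, limma adjusted p = 1.47e-07) and 2.96-fold higher in stalk (1.56 ± 0.10, adjusted p = 1.56e-07). Stx4a, a plasma membrane syntaxin that pairs with Snap23 in many cells, had -2.66, -2.76 and -2.28 in nonvascular retina, -1.22, -1.51, -1.71 and -1.44 in stalk, and -1.39 to -0.41 in tip (median -1.06). It was 2.93-fold higher in tip (1.55 ± 0.20, limma adjusted p = 5.52e-05) and 2.14-fold higher in stalk (1.1 ± 0.21, adjusted p = 0.00152). Stx2, another plasma membrane syntaxin, rose from -0.69, -0.44 and -0.41 to 0.20 to 0.63 in tip (0.97 ± 0.11) and to 0.15 to 0.44 in stalk (0.76 ± 0.11). Snap23, Stx4a and Stx2 were thus higher in the same samples in which Snap25 and Stx1a were lower.

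The promoter windows of the 2 SNARE genes with the smallest adjusted p among those that rose are shown for comparison with those of the core genes. They lie at chr2:120567421-120567720 (Snap23, plus strand, 60.3% G+C with 25 CpG) and chr6:72380419-72380718 (Vamp5, minus strand, 67.3% with 25 CpG), and hold neither RE1 part.
Snap23: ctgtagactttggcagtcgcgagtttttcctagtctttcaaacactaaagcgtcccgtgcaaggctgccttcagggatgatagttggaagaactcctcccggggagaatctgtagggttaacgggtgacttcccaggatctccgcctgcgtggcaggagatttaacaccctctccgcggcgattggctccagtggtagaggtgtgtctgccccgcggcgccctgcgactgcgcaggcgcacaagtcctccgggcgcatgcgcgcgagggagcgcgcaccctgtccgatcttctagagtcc
Vamp5: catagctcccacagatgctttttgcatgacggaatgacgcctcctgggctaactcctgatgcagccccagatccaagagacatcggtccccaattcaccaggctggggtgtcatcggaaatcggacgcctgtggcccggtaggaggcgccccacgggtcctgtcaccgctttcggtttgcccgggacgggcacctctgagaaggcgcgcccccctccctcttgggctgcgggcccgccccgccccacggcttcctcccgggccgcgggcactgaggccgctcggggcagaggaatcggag

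Smaller rises were found in Stx6, a syntaxin of the trans-Golgi and endosomes (0.70 ± 0.15 in tip, 0.59 ± 0.16 in stalk), and in Stx18, which acts at the endoplasmic reticulum (0.36 ± 0.08 and 0.50 ± 0.09). Both were called in both groups by limma, with adjusted p from 0.000853 to 0.0131, but under median centring both Stx6 calls and the stalk call of Stx18 were lost. The stalk call of Stx6 was also lost without nonvascular replicate 1 (0.55, adjusted p = 0.0528) and with the mean of its probes. Stxbp3, a partner of syntaxin 4, had -2.04, -2.12 and -1.96 in nonvascular retina and -2.10 to -1.22 in tip. Tip replicate 6 was as low as nonvascular retina, and the rise of 0.53 ± 0.16 (limma adjusted p = 0.0272) lost its call under median centring, without nonvascular replicate 1 or 2, and without tip replicate 2, 3 or 4 (adjusted p = 0.0510 to 0.267). In stalk Stxbp3 was not called (0.20 ± 0.18).

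Among the trafficking genes that fell, Snap47 changed most. This SNAP relative, present in neurons and elsewhere, had 1.86, 1.98 and 1.81 in nonvascular retina, 0.42, 0.49, 0.04 and 0.20 in stalk, and 0.29 to 0.53 in tip. It was 2.74-fold lower in tip (-1.45 ± 0.09, limma adjusted p = 1.44e-07) and 3.03-fold lower in stalk (-1.60 ± 0.10, adjusted p = 1.18e-07). Vamp4, of the trans-Golgi, had 0.16, 0.12 and 0.01 in nonvascular retina against -1.45 to -1.15 in stalk and -1.16 to -1.01 in tip, with differences of -1.2 ± 0.06 and -1.37 ± 0.07. The endosomal syntaxins Stx7, Stx8 and Stx12 were lower too, with differences of -0.94, -0.69 and -0.65 in tip and -1.0, -0.65 and -0.94 in stalk. Snap29 was called in stalk alone (-0.78 ± 0.18, adjusted p = 0.00576), a call lost with array brightness as a covariate (-0.72, adjusted p = 0.0561), and in tip it had -0.43 ± 0.17 (adjusted p = 0.0805).

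**Figure D4:**
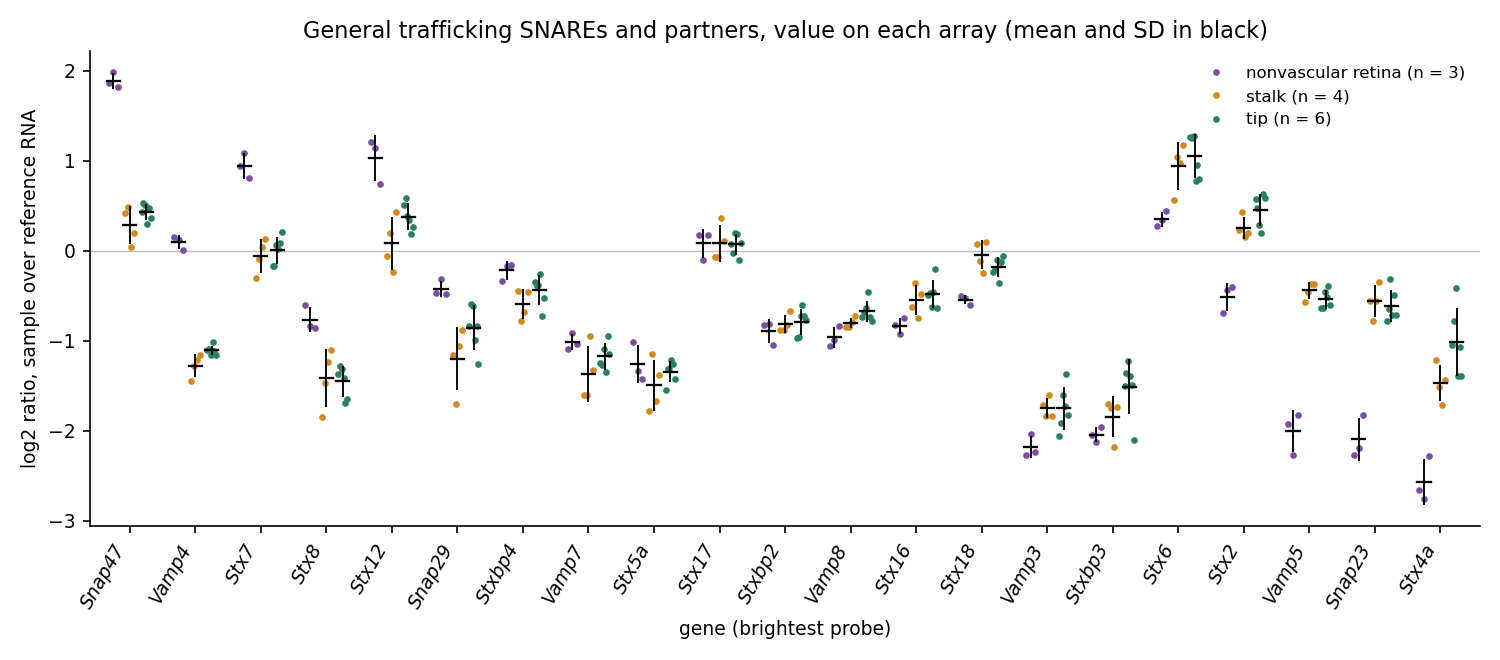
Log2 ratio over reference RNA on every array for the 21 tested trafficking SNAREs and partners, 1 point per array, with group mean and SD in black, sorted by the tip difference. Snap47 and Vamp4 at the left have all vessel arrays below nonvascular retina, and Vamp5, Snap23 and Stx4a at the right have all vessel arrays above it.

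Of the other synaptotagmins and Rab3 genes, 3 fell as far as the core. Syt13, a synaptotagmin that does not bind calcium, had 2.54, 2.71 and 2.13 in nonvascular retina, -1.42, -0.59, -3.56 and -1.37 in stalk, and -1.26 to -0.79 in tip. Its drop of 11.3-fold in tip (-3.49 ± 0.46, limma adjusted p = 6.77e-05) and 18.3-fold in stalk (-4.19 ± 0.49, adjusted p = 2.64e-05) was the largest of all 64 genes in stalk. Stalk replicate 3 was far below the rest at -3.56, and without it the stalk difference was -3.59. Syt4, found on dense-core vesicles, had 4.05, 4.79 and 3.51 in nonvascular retina and at most 1.47 in any vessel sample, with drops of 8.23-fold in tip (-3.04 ± 0.27) and 11.4-fold in stalk (-3.51 ± 0.29). Rab3b had 2.98, 3.02 and 3.00 in nonvascular retina, 0.33 to 0.99 in tip and 0.50 to 1.14 in stalk, and was 4.86-fold and 4.52-fold lower (-2.28 ± 0.14 and -2.18 ± 0.16). In the other direction went Syt7, a slow calcium sensor that also serves lysosome exocytosis, with -0.33, -0.28 and -0.02 in nonvascular retina, 0.17 to 0.33 in stalk and 0.32 to 0.70 in tip. Its rises were 0.68 ± 0.09 in tip (limma adjusted p = 0.000106) and 0.44 ± 0.10 in stalk (adjusted p = 0.00527), where the call was lost with array brightness as a covariate (0.27, adjusted p = 0.110). Syt12 was higher as well (0.59 ± 0.17 in tip, 0.80 ± 0.18 in stalk, adjusted p = 0.0166 and 0.00411), but its tip call was lost without nonvascular replicate 1, 2 or 3 (adjusted p = 0.0515 to 0.0525) and its stalk call with array brightness as a covariate.

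Different probes of one gene often disagreed in size, and this bears on every fold given above. Of the 24 genes lower in tip, 12 had further probes, 17 in all. All 17 had a negative mean difference, 11 had group ranges that did not overlap, and 7 differed by less than 0.30. Of 11 further probes of the genes that were higher in tip, 9 had a positive difference, 3 had ranges apart, and 8 differed by less than 0.30. No share over all probes is given beside the counts of ranges apart, so those counts are no measure of agreement. A second Snap25 probe gave -2.93 in tip and -3.73 in stalk, while the third stood at 0.28, 0.11 and 0.08 in nonvascular retina, stalk and tip. For Syt1, 2 further probes gave -3.31 and -2.22 in tip and 2 others -0.12 and -0.09. Both other Vamp2 probes changed little (-0.17 and -0.33 in tip, -0.24 and -0.37 in stalk), as did the other probes of Sv2a (-0.28 and -0.22) and Syt13 (-0.06 and 0.07). Those flat probes had mean red levels (log2) of 6.28 to 7.90 in every group, and the dimmest spots well above background were at 5.20 to 6.08. The offset of the background correction draws ratios of dim spots toward 0, and its part in these small differences was not tested. With the mean of all its probes in place of the brightest, Vamp2 had -0.90 in tip and was still called (limma adjusted p = 9.95e-06). The other probes of Snap23 had 0.38 and 0.43 in tip, and that of Stx4a had 0.22. A second Vamp5 probe had -0.05 in both vessel groups. It was matched by an older symbol, its accession was not among those of Vamp5 in the RefSeq table, and it may measure another gene. With the mean of their probes Snap23, Stx4a and Vamp5 had 0.76, 0.89 and 0.71 in tip, all still called. Syt16 was split in sign: its brightest probe was not called (0.53 ± 0.24 in tip), while the others gave -0.87 and -2.66 in tip and -1.02 and -3.23 in stalk. Syt16 was singled out after its values were seen.

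**Figure D5:**
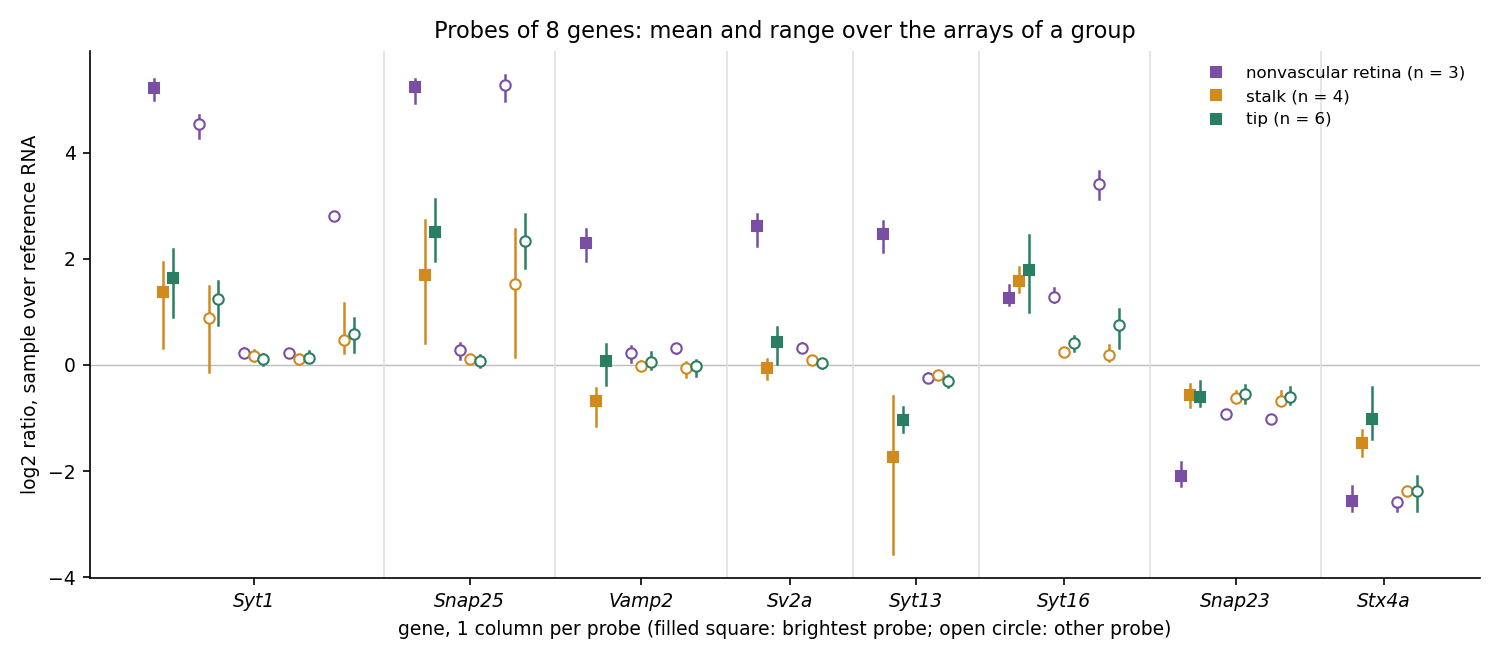
Mean log2 ratio (symbols) and range over the arrays of a group (lines) for every probe of 8 genes, with the brightest probe as a filled square. Of the 3 Snap25 probes 2 drop from above 5 to between 1 and 3 while 1 stays near 0, and the probes of Syt16 run in opposite directions.

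Tip and stalk samples differed little in these genes. Vamp2 alone was called, 1.70-fold higher in tip (0.77 ± 0.18, limma adjusted p = 0.0424), which is 1 of 64 genes, or 1.56%, beside 1.47% of all genes called higher. None was lower (1.31% of all genes were). By limma, 18 of the 64 had an unadjusted p under 0.05, beside 5764 of all 31941 genes tested. The median difference was 0.06, beside 0.00 over all genes. As given above, the Vamp2 values did not overlap, with -0.39 the lowest in tip and -0.42 the highest in stalk. The call was lost under 16 of 24 alternative settings, with adjusted p from 0.0151 to 0.342, among them leaving out nonvascular replicate 1, stalk replicate 1, 2 or 3, or tip replicate 1, 2, 3, 4 or 5. With the mean of its probes the difference was 0.29. Without stalk replicate 3, the array with the least neuronal marker signal, it was 0.61 (adjusted p = 0.118). Other core genes had 95% intervals above 0 but were not called with all arrays: Rab3a (0.74 ± 0.24, adjusted p = 0.127), Sv2a (0.49 ± 0.15, 0.103), Cplx2 (0.63 ± 0.26, 0.225) and Cplx1 (0.41 ± 0.17, 0.216). Without tip replicate 6 Sv2a was called (0.57, adjusted p = 0.0332). Rims1 was called lower in tip than in stalk without tip replicate 5 (-0.19, adjusted p = 0.0497). Snap25 had 0.80 ± 0.37 (95% interval 0.00 to 1.60, adjusted p = 0.276), and without stalk replicate 3 it had 0.37. Syt1 had 0.27 ± 0.31 with all arrays and -0.08 without that array. Pan-neuronal markers moved the same way between tip and stalk, with 12 of 13 above 0, a median of 0.32 and none called. Mural markers were lower in tip, with 11 of 11 below 0, a median of -0.72 and 7 called. Endothelial markers had 9 of 12 below 0 and 3 above, a median of -0.32 and 2 called lower. The part of these marker differences in the values of the release genes was not tested. Snap23 and Vamp5 were close between tip and stalk, at -0.05 (95% interval -0.30 to 0.20) and -0.10 (-0.28 to 0.08).

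Other genes of the release pathway, listed from textbook roles, were counted beside the 16.8% of all genes that were lower in tip and the 18.6% that were lower in stalk. Of 15 further vesicle membrane genes, 7 (46.7%) were lower and 0 higher in each vessel group, and the other 8 were not called. They included the vesicular transporters of GABA and glutamate, Slc32a1 (-3.54 ± 0.21 in tip) and Slc17a6 (-3.03 ± 0.22), and the vesicle proteins Syp (-1.38 ± 0.09) and Synpr (-3.57 ± 0.26). Slc17a7, the transporter known from photoreceptors and bipolar cells, was not called (0.03 ± 0.06 in tip). Of 17 active zone and priming genes, 9 were lower and 1 higher in tip and 10 lower and 1 higher in stalk, led by Cadps, a priming factor of dense-core vesicles (-2.81 in tip, -3.08 in stalk), and the scaffold Pclo (-1.56 and -1.68). Of 9 genes that take SNARE complexes apart or chaperone them, 7 were lower in tip and 8 in stalk, among them Nsf (-1.71 ± 0.28 in tip), Napb (-2.03 ± 0.19) and Sncg (-2.69 ± 0.23). Of 19 endocytosis genes, 13 were lower and 2 higher in either vessel group, with neuronal dynamins Dnm1 (-1.98 in tip, -2.15 in stalk) and Dnm3 (-1.88 and -2.04) lower. Of 12 calcium channel genes, 3 (25%, near the share of all genes) were lower in each vessel group: Cacna2d3 (-1.21 ± 0.07 in tip), Cacnb3 (-1.96 ± 0.17) and Cacnb4 (-0.53 ± 0.10).

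Endothelial cells have a regulated secretory organelle of their own, the Weibel-Palade body, which stores von Willebrand factor and angiopoietin 2. Of 18 genes of that pathway, 3 were higher in tip (16.7%, against 11.2% of all genes) and 5 were lower (27.8%, against 16.8%). In stalk 4 were higher (22.2%, against 11.3%) and 5 were lower (27.8%, against 18.6%). Vwf was 0.04, -0.08 and 0.05 in nonvascular retina, 2.30, 1.34, 2.25 and 1.26 in stalk, and 2.26 to 3.15 in tip, a rise of 2.78 ± 0.26 in tip. Its tip and stalk values overlapped. Angpt2 was -0.21, -0.46 and 1.38 in nonvascular retina, 1.45, 1.44, 1.93 and 2.13 in stalk, and 3.25 to 3.74 in tip. Both were also higher in tip than in stalk, by 1.00 ± 0.23 for Vwf (limma adjusted p = 0.0428) and 1.82 ± 0.29 for Angpt2 (adjusted p = 0.00658). S100a10, an annexin A2 partner, was higher in tip than in stalk too (0.47 ± 0.08, limma adjusted p = 0.00798). Unlike Vwf and Angpt2, it had its highest mean in nonvascular retina: 0.09 there, -0.33 in tip and -0.80 in stalk. Its vessel values did not overlap with those of nonvascular retina. Sytl2 (-1.80 ± 0.16 in tip), Myrip (-0.78 ± 0.06) and Rab15 (-1.52 ± 0.20) were lower in both vessel groups as well. In the tip against stalk comparison 3 of the 18 Weibel-Palade body genes (16.7%) were thus called higher, beside 1.47% of all genes. The other pathway lists held 2 more calls there, each a single gene. Apba2, an adaptor protein of the synapse (1.18, limma adjusted p = 0.00119), was 1 of 17 active zone and priming genes (5.88%). The endophilin Sh3gl3 (0.64, limma adjusted p = 0.0143) was 1 of 19 endocytosis genes (5.26%). Both had their highest mean in nonvascular retina: 2.85 there, 2.44 in tip and 1.26 in stalk for Apba2, and 1.70, 0.08 and -0.56 for Sh3gl3.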

How the data were processed

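RNA of 13 samples (6 tip, 4 stalk, 3 nonvascular retina; groups from the labels) was extracted with the PicoPure kit and linearly amplified, per the labels. Spot values came from Agilent Feature Extraction 8.5.1.1, per the submitters' processing notes. Per the file headers, the scanner files hold the mean intensity and local background of each spot and channel, not normalized, and a log10 ratio of red over green processed signal. The authors also deposited a linear ratio per probe, of which at least 99.9% on each array equalled the antilog of that log10 ratio within 0.001. Scale and direction of these ratios are thereby known; their median per array was 1.06 to 1.15, and 631 to 1555 values per array were missing.

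Log2 ratios were computed with limma 3.58.1 (R 4.3.3, the data.table package at version 1.17.8): normexp background correction (offset 50) and loess within arrays, control spots at weight 0 and outlier spots set to missing. Probes were named by RefSeq accession or description symbol: 22072 of 41174 by their own accession, 142 by another one, 1261 by symbol; the rest kept the file's name. The brightest probe stood for a gene. A model of 3 group means over all 13 arrays was tested with limma and adjusted by the Benjamini-Hochberg method over 31941 genes in each of 3 comparisons, and the steps were tested on simulated data. Errors on differences are SE. Red levels follow Aquantile normalization of average intensity between arrays. The number of arrays limits the precision.

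The genes and lists were chosen with earlier results of these data known. Named were the core genes, every gene called between tip and stalk, the 8 largest called differences per direction among the other roles in each comparison with nonvascular retina, and up to 4 genes with the smallest p per pathway list and comparison; Stx8, Stx18, Slc17a7, Syt16 and others outside a comparison's rule were named after their values were seen. Alternatives covered filters, background, normalization, deposited ratios, the red channel alone, probe choice, samples in the fit, array brightness, the replicate number as a block, and leaving out each array. Same-numbered arrays of different groups correlated at -0.14 to 0.08 in their deviations from group means (10 pairs). Arrays with different numbers ran from -0.18 to 0.18. Such values cannot settle whether the numbers pair the samples, and the labels do not say. A comparison of protein sequences was not run. A few genes covered by the counts are not reported here by name.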

Additional observations from a re-analysis of the deposited data

Results flagged for a closer look

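In 88 groups of values, arrays lying far from the others of the same group were searched for, and 5 were found, where chance alone flags about 1 group in 20. Rab3a on stalk replicate 3 had -0.094, against 1.06 to 1.25 on the other stalk arrays. Stxbp3 on the same array had -2.18, against -1.75 to -1.70. Stxbp3 on tip replicate 6 had -2.10, against -1.50 to -1.22. Stx3 on tip replicate 6 had 0.24, against -0.04 to 0.06. Rims3 on stalk replicate 2 had -0.018, against 0.10 to 0.12.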

How the results depend on the processing

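No call of a named gene turned its direction under any setting run. The 24 lower genes in tip and 26 lower genes in stalk stayed within 1.5 times of these counts in every setting. The 13 higher genes in tip became 6 under median centring and 8 with the replicate number as a block (the replicate block), and 8 to 15 when 1 array was left out, with 8 without nonvascular replicate 1. The 10 higher genes in stalk became 6 with array brightness as a covariate. The median of the genes moved from -0.12 to -0.18 in tip with the Feature Extraction or deposited ratios and to -0.029 with the red channel alone, and from -0.13 to -0.066 in stalk without a filter on dim probes. Between tip and stalk it moved from 0.06 to 0.12 with the Feature Extraction or deposited ratios. The single higher gene between tip and stalk became 0 under median centring, both of those ratios, red alone, the mean of probes and array brightness, and 0 to 3 when 1 array was left out (3 without tip replicate 6); lower genes became 0 to 1. The cause was not tested. Over all genes, tip against stalk gave 469 higher and 420 lower, but 49 and 202 under median centring, 207 and 475 with red alone and 76 and 148 with array brightness; tip against nonvascular retina gave 3565 and 5367, but 2183 and 5589 under median centring. Whether the numbers pair the samples is not known. With the replicate block, Vamp2 was no longer called between tip and stalk (0.87, limma adjusted p = 0.0608) and Sv2a was (0.64, 0.0191). The tip call of Syt12 was lost with that block (0.51, 0.0607). A slide block was not run, since each slide held 1 array.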
